A study of Homo sapiens with 8 samples.

Results

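Processed pseudogenes of the glycolytic enzymes are the subject here. They were taken as every row of the deposited array table whose probe annotation gives exactly 1 gene symbol, that symbol being a numbered pseudogene of GAPDH, PGK1, LDHA, LDHB, ENO1, ALDOA, PGAM1, TPI1, PKM, HK2 or GPI. This gave 95 rows with 95 different symbols, of 135750 transcript clusters in all. GAPDH contributed 60 of them, PGAM1 12, LDHA 6, PKM and TPI1 4 each, LDHB 3, ALDOA and ENO1 2 each, and PGK1 and HK2 1 each. No row carried a pseudogene symbol of GPI.

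The RNA came from LN229, an established human glioblastoma cell line, on 8 expression arrays in 2 groups of 4. Cells sat in Transwell inserts with a polyester membrane for 18 h, either under a compressive solid stress (CSS) of 23 Pa or free of it. Stainless-steel discs on an agar cushion gave the pressure, and control wells had neither, so that the comparison is of cushion and discs together with none. In all 8 samples the title and the other labels are opposed: samples titled as control carry a source name with 23 Pa CSS, and those titled 23 Pa CSS are described as uncompressed. Groups follow the titles. A positive difference means a higher mean log2 signal in the samples titled 23 Pa CSS, and all signs turn if the source names are the correct labels. Whether the 4 samples of each group came from different cultures is not stated, so the p-values rest on a spread that may be technical.

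A processed pseudogene arises when a messenger RNA is copied back into DNA and inserted elsewhere in the genome. The copy lacks the introns of its parent gene and normally its promoter, and most such copies make no working protein. Glycolytic enzymes, whose RNAs are abundant in nearly every cell, have left many copies in the human genome, and those of glyceraldehyde-3-phosphate dehydrogenase (GAPDH) form one of the larger sets. Because a recent copy still resembles its parent, an array probe for one can also bind RNA of the other. How far the signal of each row comes from RNA of the parent was not tested.

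All 95 symbols were found in the RefSeq gene table (GRCh38.p14), and in all 95 the chromosome in the array's row identifier was the chromosome of the pseudogene in that table. RefSeq called 92 of them pseudogenes and 3 transcribed pseudogenes, namely PGAM1P5, TPI1P2 and TPI1P3. The build behind the array's identifiers is not stated, so no positions of pseudogenes are printed. Another 10 symbols of the same kind in RefSeq, PGK1P1 and ENO1P1 among them, had no single-symbol row and were not analysed here.

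To show what a processed copy leaves behind, the 250 bases before the start of a pair of parent genes are given, from RefSeq (GRCh38.p14). Capitals mark ACGTG or GCGTG on either strand, the core letters of the element that hypoxia-inducible factors bind. Matches on the opposite strand read CACGT or CACGC, and CACGTG matches on both strands. These parents were chosen because PGK1 had the largest difference among the parents and LDHA lay at the top of the array's range.
PGK1, chrX:78103998-78104247, plus strand: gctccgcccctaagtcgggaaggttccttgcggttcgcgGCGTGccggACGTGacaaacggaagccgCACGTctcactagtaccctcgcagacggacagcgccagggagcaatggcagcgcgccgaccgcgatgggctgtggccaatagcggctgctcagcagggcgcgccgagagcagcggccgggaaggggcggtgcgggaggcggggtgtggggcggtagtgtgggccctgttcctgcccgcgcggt
LDHA, chr11:18394313-18394562, plus strand: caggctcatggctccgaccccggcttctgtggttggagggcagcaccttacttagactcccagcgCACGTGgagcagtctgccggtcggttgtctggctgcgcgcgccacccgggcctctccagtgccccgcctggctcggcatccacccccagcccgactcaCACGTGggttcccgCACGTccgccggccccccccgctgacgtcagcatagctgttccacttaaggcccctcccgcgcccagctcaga
PGK1 held 3 matches and LDHA 5. Of the 11 parents 7 held at least 1, and so did 43.2% of the 35116 upstream windows of the same length in the table. A match describes letters only.

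The log2 signals ran from 2.07 to 19.93, and array medians lay between 4.56 and 4.647. Negative control rows had their 95th percentile at 7.54, and 27 of the 95 pseudogene rows lay above it in both groups. Another 68 did not, so the larger part of the set was measured within the range of the negative controls. Markers of the line were high: VIM, which encodes vimentin, averaged 16.64 and 16.91 in the samples titled no CSS and 23 Pa CSS, and CD44 13.59 and 14.13. S100A10, also listed for the line, rose from 16.45 to 17.62 (limma adjusted p = 0.011), the only one called of 5 such markers. PTPRC, AIF1 and ITGAM (leukocytes), PECAM1, CDH5 and KDR (endothelium), and MBP and MOG (oligodendrocytes) lay under the 95th percentile of the negative controls. So did EPCAM and CDH1 (epithelium), RBFOX3 (neurons), and HBA1 and HBB (erythroid cells). CD68, KRT8, SYT1 and SNAP25 lay above that mark. Of these CD68, found in lysosomes of macrophages and other cells, rose from 11.25 to 12.73 (limma adjusted p = 0.0132). The neuronal markers SYT1 and SNAP25 averaged 10.34 and 8.08 in the samples titled no CSS and 9.25 and 7.58 in those titled 23 Pa CSS, SYT1 without overlap (limma adjusted p = 0.0995 and 0.195). KRT8 averaged 9.21 and 9.0 (limma adjusted p = 0.637). The part of these markers in the results was not tested.

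Most pseudogene rows had a higher mean in the samples titled 23 Pa CSS, and few passed the test. Copies of PGK1, ALDOA, LDHA and GAPDH rose by 1.79-fold to 3.01-fold, and 1 GAPDH copy fell 2.72-fold. A row was called where limma gave a Benjamini-Hochberg adjusted p under 0.05 over all 135750 transcript clusters. By that rule 6 rows rose, 1 fell and 88 did not pass, where 2.01% of all transcript clusters were called, 0.581% higher and 1.43% lower. On arrays centred on their hybridisation controls, which are only 4 rows, the split was 2 higher and 2 lower. That centring moved the median of all transcript clusters to -0.284. The array means of those controls ran from 9.972 to 10.38 in the samples titled no CSS. In the samples titled 23 Pa CSS they ran from 10.39 to 10.66, without overlap. The median difference over the 95 rows was 0.426, beside 0.0266 over all transcript clusters, and 81 of the 95 differences were above 0, as were 53.6% of all. After the centring 59 were above 0 and 79 above the median of all. Among the 36176 transcript clusters with exactly 1 symbol, the kind of row from which the pseudogenes were taken, 475 rose and 357 fell, the median difference was 0.0892, and 61.8% were above 0. At an unadjusted p under 0.05 there were 46 higher and 2 lower rows, beside 7.25% and 8.8% of all transcript clusters. Of those with 1 symbol, 12.3% were higher by that rule. All 4 samples titled 23 Pa CSS lay above all 4 titled no CSS in 31 rows (4.78% of all transcript clusters and 8.82% of those with 1 symbol) and below them in 2 (5.14%).

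**Figure D1:**
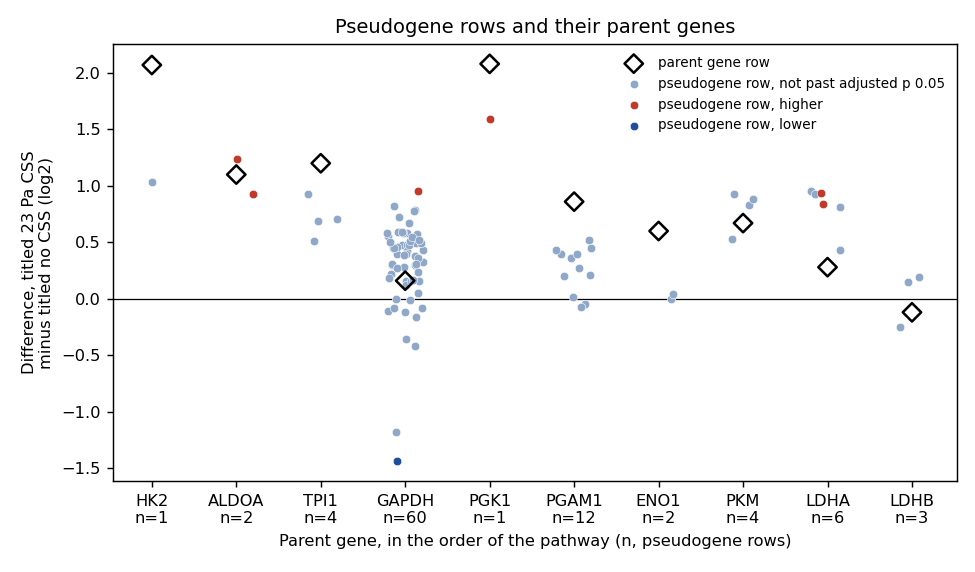
Each dot is 1 pseudogene row and each open diamond its parent gene's row. The vertical axis is the difference between the means of 4 samples titled 23 Pa CSS and 4 titled no CSS (log2), and columns follow the pathway. The PGK1 and ALDOA copies reached 1.59 and 1.24, the LDHA copies lay between 0.43 and 0.95, and GAPDHP27 and GAPDHP33 stood apart at -1.44 and -1.18. The diamonds of GAPDH and LDHA come from rows within 0.05 and 0.02 of the table's maximum and are no reference for their copies.

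Some samples were high or low in many pseudogene rows, without an order that all rows shared. Titled no CSS replicate 1 was the highest of its group in 52 of the 95 rows, and titled 23 Pa CSS replicate 1 in 42. The lowest of the samples titled 23 Pa CSS was replicate 3 in 46 rows. Set against the average of its 4 titled no CSS values, each row gave a deviation per sample, whose median over the 95 rows was 0.214, -0.0225, -0.102 and -0.0883 in replicates 1 to 4 of that group. In the samples titled 23 Pa CSS it was 0.564, 0.415, 0.31 and 0.36, so that these 4 medians all lay above the other 4. The median over all transcript clusters stayed between -0.015 and 0.0422 in every sample.

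The rows that passed came from 4 parents. PGK1P2 (TC1900007083.hg.1), the chromosome 19 copy of phosphoglycerate kinase, read 7.01, 6.59, 6.38 and 6.09 in the samples titled no CSS and 8.10, 8.18, 7.76 and 8.39 in those titled 23 Pa CSS. No sample of one group reached the other. All values titled no CSS lay under the 95th percentile of the negative controls, 7.54. The mean of PGK1P2 was 6.52 ± 0.387 and then 8.11 ± 0.259 (SD, n = 4), a rise of 1.59 or 3.01-fold by limma (adjusted p = 0.011). Its parent PGK1, which makes the first ATP of the pathway, rose by 2.08, from 15.01 ± 0.368 to 17.09 ± 0.305 (SD, n = 4, limma adjusted p = 0.00449). The rise of the copy was smaller than that of the parent, and the difference between them was not tested.

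Aldolase A splits fructose-1,6-bisphosphate, and both copies of its gene rose. ALDOAP2 (TC1000012157.hg.1), on chromosome 10, read 9.90, 9.48, 9.36 and 9.28 without CSS and 10.89, 10.85, 10.66 and 10.60 with it, as titled. The groups did not overlap, and the difference was 1.24 (2.37-fold, limma adjusted p = 0.0129). ALDOAP2 overlaps TEX36 in RefSeq, a gene that averaged 3.93 and 4.2 (limma adjusted p = 0.48). ALDOAP1 (TC0300007465.hg.1), on chromosome 3, read 5.80, 5.54, 5.45 and 5.33 as against 6.82, 6.47, 6.36 and 6.19. It too rose without overlap, by 0.93 (limma adjusted p = 0.0324), with every value under the 95th percentile of the negative controls. ALDOA itself rose by 1.10, from 16.3 ± 0.0461 to 17.4 ± 0.153 (SD, n = 4, limma adjusted p = 0.011). The differences of both copies lay on either side of that of the parent.

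Lactate dehydrogenase A turns pyruvate into lactate. Its parent row lay at the top of the array: LDHA read 19.69, 19.70, 19.71 and 19.41 in the samples titled no CSS and 19.93, 19.93, 19.86 and 19.92 in those titled 23 Pa CSS, where the table ends at 19.93. The difference of 0.28 did not pass (limma adjusted p = 0.415) and was -0.03 after the centring; the higher mean lay 0.02 below the maximum. At that position the row leaves little room for a higher value, so the copies are not ranked against it. The differences of the 6 LDHA pseudogene rows ran from 0.43 to 0.95 with a median of 0.888 (0.577 after the centring), and each had an unadjusted p under 0.05. After adjustment 2 of them rose. LDHAP3 (TC0200007340.hg.1) went from 4.61, 4.55, 4.36 and 4.54 to 5.83, 5.36, 5.41 and 5.25, with every value under the 95th percentile of the negative controls and no overlap (difference 0.94, limma adjusted p = 0.0254). LDHAP1 (TC0400009875.hg.1) went from 10.32, 9.93, 9.87 and 9.76 to 10.95, 10.80, 10.48 and 11.01, again without overlap (difference 0.84, limma adjusted p = 0.0475).

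The brightest copy of LDHA showed the smallest difference. LDHAP7, at 14.26, 14.02, 13.87 and 13.50 without CSS and 14.36, 14.31, 14.28 and 14.44 with it as titled, differed by 0.43 (limma adjusted p = 0.276). LDHAP2, LDHAP4 and LDHAP5, with mean signals of 11.19, 10.73 and 11.86, differed by 0.81, 0.93 and 0.95 and did not pass (limma adjusted p = 0.0806, 0.117 and 0.084). LDHAP4 and LDHAP2 had samples that overlapped between the groups, LDHAP5 and LDHAP7 had none. LDHB encodes the heart-type subunit, and its row was 16.61 ± 0.0355 and 16.49 ± 0.0793 (SD, n = 4, limma adjusted p = 0.756). Its 3 pseudogene rows differed by 0.19 (LDHBP2), 0.15 (LDHBP3) and -0.25 (LDHBP1), each with overlapping groups, and after the centring their median was -0.163. None of the 3 lay above the 95th percentile of the negative controls, whereas 5 of the 6 LDHA copies did. LDHBP2, the brightest and at -0.12 after the centring, read 6.36, 6.24, 6.26 and 6.51 and then 6.68, 6.73, 6.49 and 6.24. Whether the LDHA and LDHB copies differ from each other in response was not tested.

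**Figure D2:**
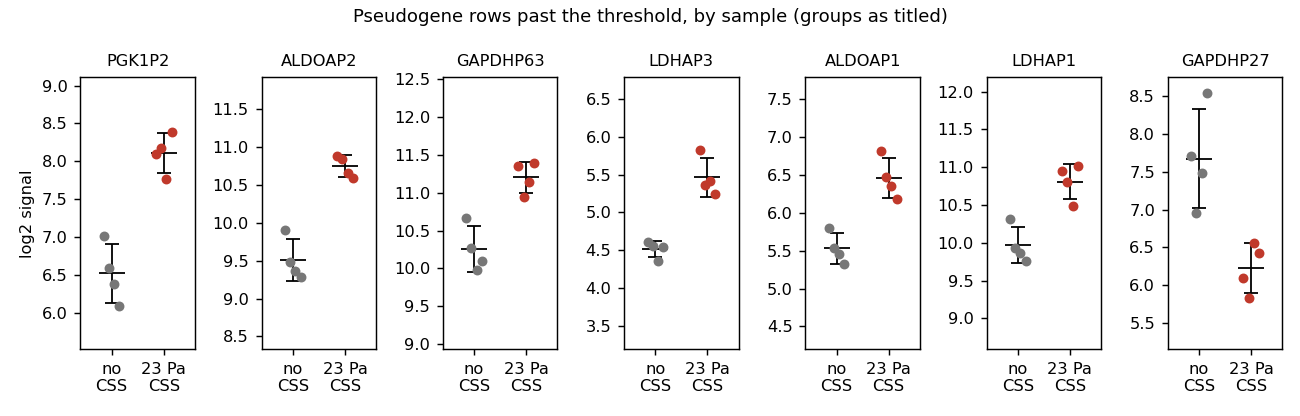
Log2 signal of the 7 rows past the threshold in each sample, with the mean and SD of each titled group (n = 4). Every vertical axis spans the same number of log2 units. All 7 rows show groups without overlap, 6 higher and GAPDHP27 lower in the samples titled 23 Pa CSS.

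GAPDH, which oxidises glyceraldehyde-3-phosphate, also lay near the maximum. Its row read 19.84, 19.80, 19.68 and 19.58 in the samples titled no CSS and 19.89, 19.85, 19.89 and 19.89 in those titled 23 Pa CSS. The groups did not overlap but the difference was 0.16 (limma adjusted p = 0.685) and -0.16 after the centring, with the higher mean 0.05 below the table's maximum. Its 60 pseudogene rows had a median difference of 0.395 (0.0843 after the centring), and 50 of them were above 0. They are not ranked against the parent either, for the same reason. One rose, 1 fell and 58 did not pass. GAPDHP63 (TC0600012380.hg.1), on chromosome 6, read 10.67, 10.27, 9.98 and 10.10 and then 11.35, 10.94, 11.14 and 11.39, a rise of 0.95 without overlap (limma adjusted p = 0.0357).

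The GAPDH copies spanned most of the range of the array. Their mean signal ran from 3.18 to 16.18, and 15 of the 60 lay above the 95th percentile of the negative controls. Of those 15, 14 were higher in the samples titled 23 Pa CSS and the median difference was 0.557. Of the other 45, 36 were higher and the median was 0.31. Over all transcript clusters above the same mark the median was -0.0121 and 48.8% were higher. Across the 60 rows, which share 8 arrays and much sequence, signal level and difference had a Pearson r of 0.232 and a Spearman rho of 0.345, given as a description.

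GAPDHP61, on chromosome 15, was the brightest of all 95. It read 16.22, 15.85, 15.83 and 15.83 in the samples titled no CSS and 16.55, 16.45, 16.28 and 16.44 in those titled 23 Pa CSS. Its groups did not overlap, yet the difference of 0.50 did not pass (limma adjusted p = 0.153), and titled no CSS replicate 1 stood apart from the rest of its group. That sample was the highest of its group in 13 of the 15 GAPDH rows above the mark. GAPDHP65, GAPDHP59, GAPDHP2, GAPDHP60 and GAPDHP45, with mean signals from 12.14 to 15.81, differed by 0.38 to 0.58, and in each of these 5 the groups overlapped. GAPDHP64 and GAPDHP44, picked after their values were seen and dimmer at 8.56 and 7.81, differed by 0.82 and 0.79 without overlap (limma adjusted p = 0.102 and 0.115).

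**Figure D3:**
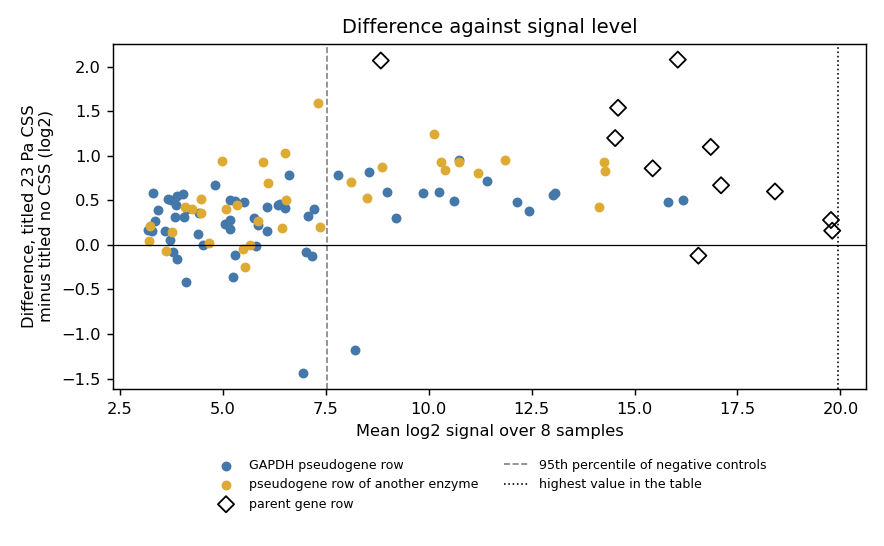
Difference between the titled groups (vertical, log2) against mean log2 signal over the 8 samples (horizontal) for the 95 pseudogene rows and the 11 parent rows. To the right of the dashed line at 7.54, GAPDHP33 at -1.18 is the only pseudogene row below 0. The GAPDH and LDHA parent rows lie at the dotted line, the table's maximum of 19.93.

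A group of 6 GAPDH pseudogenes held the 2 pseudogene rows with differences of -0.5 or below, and it was singled out after its values were seen. GAPDHP74, GAPDHP23, GAPDHP58, GAPDHP32, GAPDHP27 and GAPDHP33 follow one another in that order on chromosome 1, alternating with HSD3B1 and its pseudogenes, genes and copies of the steroid enzyme 3-beta-hydroxysteroid dehydrogenase. GAPDHP27 (TC0100015467.hg.1) read 7.71, 6.96, 7.49 and 8.54 in the samples titled no CSS and 6.09, 5.83, 6.56 and 6.43 in those titled 23 Pa CSS. It fell by 1.44 without overlap (2.72-fold, limma adjusted p = 0.0379), the only one of the 95 called lower. Its mean in the samples titled 23 Pa CSS, 6.23, lay under the 95th percentile of the negative controls. GAPDHP33 (TC0100015470.hg.1) read 8.87, 8.63, 8.72 and 9.02 and then 7.32, 6.99, 8.60 and 7.63. Its groups did not overlap, titled 23 Pa CSS replicate 3 lay just under the other group, and the difference of -1.18 did not pass (limma adjusted p = 0.0696). GAPDHP33 was called lower in 2 of 13 alternative fits, after the hybridisation centring (limma adjusted p = 0.0164) and without titled 23 Pa CSS replicate 3.

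The other members of the group had lower signal and did not pass. GAPDHP58 and GAPDHP32 differed by -0.42 and -0.36 (limma adjusted p = 0.478 and 0.558), and GAPDHP74 averaged 5.83 and 5.82. GAPDHP23, the dimmest at 3.76 and 4.33, differed by 0.57 (limma adjusted p = 0.117). Among the 54 GAPDH copies elsewhere, 49 were higher, the median difference was 0.412, and the range was -0.16 to 0.95. No test of this contrast was made, because the group was picked for its values.

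Neighbouring genes on chromosome 1 were read from the same fit, also after the values were seen. Next to GAPDHP33 in RefSeq lies LINC00622 (TC0100015468.hg.1), a long non-coding RNA gene with a much higher signal. It read 13.10, 13.14, 12.66 and 13.60 in the samples titled no CSS and 11.60, 10.86, 12.16 and 12.15 in those titled 23 Pa CSS. LINC00622 fell by 1.43 without overlap (limma adjusted p = 0.0377), a difference close to that of GAPDHP27. HSD3BP4, which lies between GAPDHP27 and GAPDHP33, averaged 5.45 and 5.06 (limma adjusted p = 0.626), and HSD3BP5 and ZNF697 beyond LINC00622 differed by -0.37 and -0.29 (limma adjusted p = 0.422 and 0.458). HSD3B1 lay at 3.08 and 3.17, within the negative controls. Whether any of these genes shares transcripts with the pseudogenes was not tested.

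**Figure D4:**
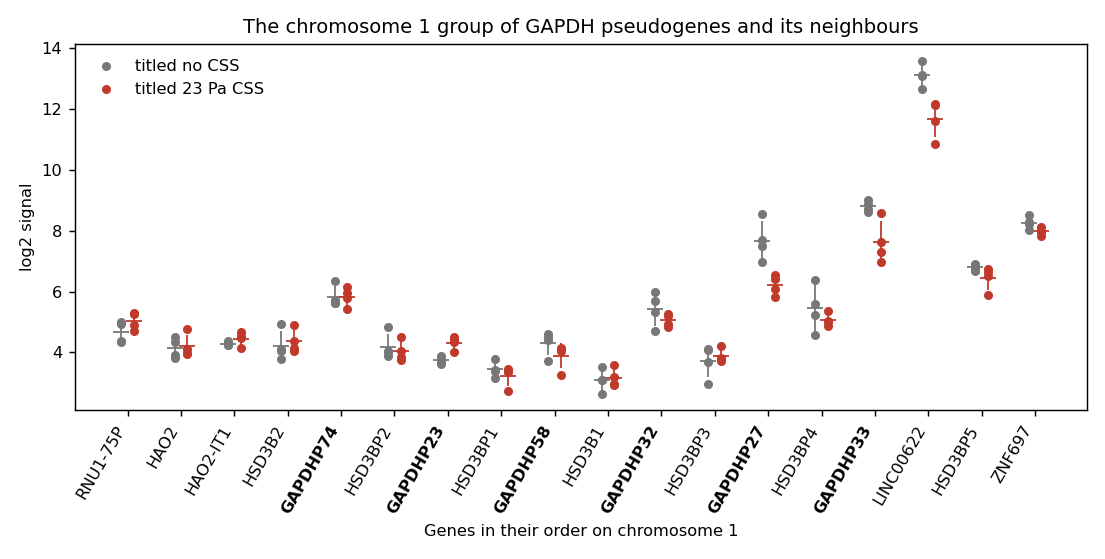
Log2 signal in each sample for the 6 GAPDH pseudogenes of the chromosome 1 group (bold) and neighbouring genes with a row, in their RefSeq order. Dots are single samples, and bars give the mean and SD of 4. GAPDHP27, GAPDHP33 and LINC00622 are lower in every sample titled 23 Pa CSS than in any titled no CSS.

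Triosephosphate isomerase interconverts the 3-carbon products of aldolase, and its 4 copies had differences of similar size, with 0 past limma's threshold. TPI1P1, the brightest, read 10.38, 10.17, 9.64 and 9.17 and then 11.09, 10.68, 10.50 and 10.80, a difference of 0.93 that did not pass (limma adjusted p = 0.096). TPI1P4, TPI1P2 and TPI1P3 differed by 0.71, 0.69 and 0.51 (limma adjusted p from 0.0769 to 0.159). For all 4 the groups did not overlap, and all 4 had an unadjusted p under 0.05. The parent TPI1 rose by 1.20, from 13.93 ± 0.198 to 15.13 ± 0.162 (SD, n = 4, limma adjusted p = 0.0112), more than any of its copies.

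Pyruvate kinase M makes pyruvate and ATP at the end of the pathway. PKMP1 read 14.36, 13.87, 13.95 and 13.33 without CSS and 14.76, 14.59, 14.57 and 14.90 with it as titled, a difference of 0.83 (limma adjusted p = 0.0805). PKMP4, at nearly the same level, differed by 0.93 (limma adjusted p = 0.0779), PKMP2 by 0.88 (limma adjusted p = 0.0598) and PKMP5 by 0.53 (limma adjusted p = 0.214). None of the 4 passed. PKM itself was 16.76 ± 0.124 and 17.44 ± 0.15 (SD, n = 4, limma adjusted p = 0.0571), a difference of 0.67 that also missed the threshold, and 3 of the 4 copies lay above it.

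Hexokinase 2 traps glucose in the cell as glucose-6-phosphate. Its single copy HK2P1, on the X chromosome, is shown because it lay just outside the threshold; it read 6.34, 6.26, 6.18 and 5.26 and then 7.05, 7.09, 6.89 and 7.11. The groups did not overlap, and the difference of 1.03 did not pass (limma adjusted p = 0.0516). Every value of HK2P1 lay under the 95th percentile of the negative controls. HK2 read 8.09, 8.20, 7.86 and 7.07 and then 10.12, 9.90, 9.81 and 9.69, a rise of 2.07 (limma adjusted p = 0.0059). Titled no CSS replicate 4 was the lowest sample on both rows.

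Phosphoglycerate mutase 1 moves a phosphate within 3-phosphoglycerate, and its 12 copies were dim. Their mean signals ran from 3.23 to 7.37, none above the 95th percentile of the negative controls. Differences ran from -0.07 to 0.52 with a median of 0.316 (0.00493 after the centring), 0 passed limma's threshold and 3 had an unadjusted p under 0.05. PGAM1P2, the brightest, read 7.84, 7.28, 6.94 and 7.01 and then 7.46, 7.69, 7.42 and 7.28, with the groups overlapping, and its difference of 0.20 was -0.11 after the centring. The parent PGAM1 rose by 0.86, from 15.01 ± 0.128 to 15.87 ± 0.136 (SD, n = 4, limma adjusted p = 0.0245). A second row with the symbol PGAM1 rose by 1.26 (limma adjusted p = 0.0122), but its identifier (TC1200011543.hg.1) points to chromosome 12, whereas the gene lies on chromosome 10. PGAM4, a working retrocopy of PGAM1, averaged 5.23 and 6.0 (limma adjusted p = 0.125).

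Enolase 1 makes phosphoenolpyruvate. Neither of its copies lay above the 95th percentile of the negative controls. ENO1P2 averaged 3.2 and 3.25 (limma adjusted p = 0.942). ENO1P3 read 4.72, 5.41, 6.72 and 5.85 in the samples titled no CSS and 5.72, 5.42, 5.49 and 6.05 in those titled 23 Pa CSS. Its mean was 5.67 in both groups, and the samples titled no CSS lay on both sides of the others. ENO1 differed by 0.60, from 18.12 ± 0.155 to 18.71 ± 0.167 (SD, n = 4, limma adjusted p = 0.0922). A second ENO1 row (TC0100006755.hg.1), much dimmer, rose by 1.99 (limma adjusted p = 0.0444). Glucose-6-phosphate isomerase, the parent without a pseudogene row, rose by 1.54 (GPI, limma adjusted p = 0.0138).

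Copies and parents can be set side by side over the 35 rows outside the GAPDH family. Of these, 31 were higher, 5 rose and 0 fell, with 0 lower also at an unadjusted p under 0.05. Over all transcript clusters 53.6% were higher, 0.581% were called higher and 1.43% lower, and 8.8% were lower at that unadjusted p. The LDHA row lies at the table's maximum and gives no usable size to set its copies against, so the 6 LDHA copies were left aside, a choice made after the values were seen. In 23 of the other 29 the difference was smaller than that of the parent. Most of the 29 did not lie above the 95th percentile of the negative controls. Those above it were 4 copies of PKM, 2 of TPI1 and 1 of ALDOA. Of these, 3 PKM copies and ALDOAP2 had a larger difference than the parent, and the TPI1 copies a smaller one. The part of low signal in the smaller differences was not tested. Across these 29, which share parents and arrays, the difference of the parent and that of the copy had a Pearson r of 0.665 and a Spearman rho of 0.567, given as a description. With the LDHA copies, over 35 rows, they were 0.419 and 0.244. Of 30 measured enzyme genes of glycolysis and lactate formation, all isoforms included, 10 rose, 0 fell and 20 did not pass, with a median of 0.542. None was lower at an unadjusted p under 0.05 either.

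Many copies overlap other genes. In RefSeq 45 of the 95 overlap another gene and 50 do not, with median differences of 0.405 and 0.453. For 38 pairs of a copy and an overlapping gene both had a row, and in 33 of them the copy was higher. The overlapping gene was higher in 20 of those 33 and lower in 13. The median was 0.118 for the overlapping genes and 0.404 for the copies in the pairs. Signs were opposite in 15 of the 38 pairs. Examples of opposite sign, chosen after their values were seen, are GAPDHP2 (0.56) with TASP1 (-0.65), GAPDHP60 (0.38) with KLHL8 (-0.67) and LDHAP2 (0.81) with LYST (-0.89). None of the 6 passed the threshold. Among all the overlapping genes 1 passed it, where 2.01% of all transcript clusters did. This was KCNQ5, with a difference of -1.09 (limma adjusted p = 0.0188), which overlaps PGAM1P10 (-0.05). ZNF609, which overlaps GAPDHP61, differed by 0.08. The strand of overlapping genes is not in the table used, and signal that a copy shares with such a gene was not tested.

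Copies of other genes gave smaller medians. Beside the counts that follow, 0.581% of all transcript clusters were called higher, 1.43% were called lower, and 53.6% had a higher mean. Among 890 rows of ribosomal protein pseudogenes 4 rose and 2 fell, the median difference was 0.216, and 81.6% were higher. Among 368 rows of pseudogenes of other abundant genes, such as EEF1A1, PPIA and FTH1, 11 rose and 1 fell, the median was 0.0378, and 56% were higher. Of 37 BNIP3 pseudogene rows 1 rose and 3 fell, with a median of 0.0408. The share of the glycolytic copies that were higher was 85.3%, and no test was made between the sets. By the smallest p of each list, RPS27P15 rose by 1.4, RPL12P41 rose by 1.17 and RPS12P5 fell by 1.23 (limma adjusted p = 0.0196, 0.0216 and 0.0314). NPM1P37 fell by 1.13, while the ferritin heavy chain copies FTH1P7 and FTH1P4 rose by 1.16 and 0.86 (limma adjusted p = 0.0228, 0.0242 and 0.0254). RPL12P41 and NPM1P37 lay under the 95th percentile of the negative controls in both groups, and RPS12P5 in the samples titled 23 Pa CSS. BNIP3P1 rose by 2.62, and BNIP3P3 and BNIP3P7 fell, with differences of -2.51 and -2.57 (limma adjusted p = 0.00206, 0.0272 and 0.0289).

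**Figure D5:**
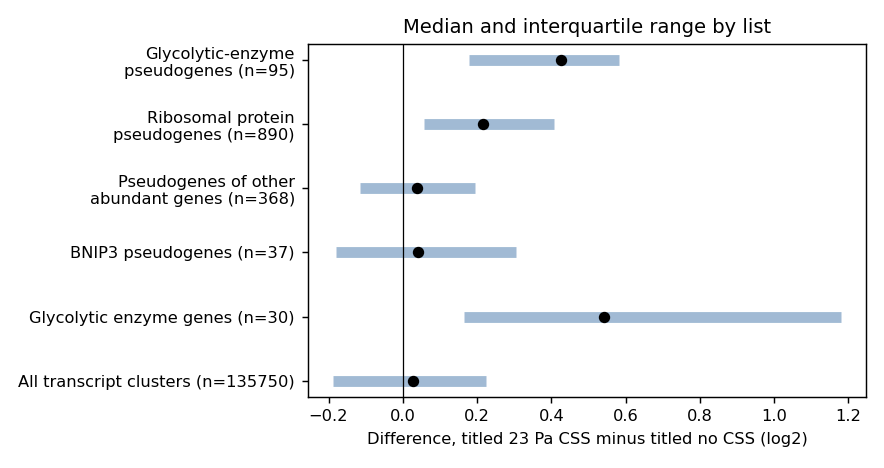
Median (dot) and interquartile range (bar) of the difference between the titled groups (log2) for each list of rows, with n the number of rows. The glycolytic-enzyme pseudogenes lie at 0.426, the ribosomal protein pseudogenes at 0.216 and all transcript clusters at 0.0266.

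The 7 calls did not hold equally across the alternative fits. Leaving out 1 sample also moved the calls over all transcript clusters, from 789 higher to between 145 and 1283. The part of the smaller number of samples in the lost calls was not tested. PGK1P2 and ALDOAP2 passed under each of 13 alternative fits, with adjusted p of at most 0.0416 and 0.0485. ALDOAP1, LDHAP1, LDHAP3, GAPDHP63 and GAPDHP27 each missed the threshold when replicate 3 or replicate 4 of the samples titled no CSS was left out, or replicate 1 or replicate 4 of the other group. Dropping titled no CSS replicate 1 also ended the calls of LDHAP1, LDHAP3 and GAPDHP27. Dropping replicate 2 of that group ended those of ALDOAP1, LDHAP1, LDHAP3 and GAPDHP63. Dropping titled 23 Pa CSS replicate 2 ended those of ALDOAP1, LDHAP1, GAPDHP63 and GAPDHP27. The hybridisation centring ended the calls of ALDOAP1, LDHAP1, LDHAP3 and GAPDHP63. The adjusted p of these 5 lay at 0.134 or below throughout. LINC00622 kept its call only without titled 23 Pa CSS replicate 3 among the 8 fits that leave out a sample, with adjusted p up to 0.114. GAPDHP27 also lost its call under quantile normalization.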

How the data were processed

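The deposited table holds log2 signal for 138745 rows and 8 samples, which the authors made with Transcriptome Analysis Console, per the submitters' processing notes. Its version, the summarisation, the normalization and the build are not given in the sources used here. The array named by the submitters is the Human Transcriptome Array 2.0, whereas the probe annotation used is that of another platform, GEO's for this table. After removal of 2995 control rows, all 135750 transcript clusters entered the test on the deposited log2 scale, dim ones included. Array signal carries no counts, and the number of arrays limits its precision.

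The comparison used lmFit and eBayes of limma 3.58.1 (R 4.3.3), two-sided, on 6 residual degrees of freedom plus 5.28 from the prior, with Benjamini-Hochberg adjustment over all transcript clusters and a threshold of 0.05. For a parent gene with several rows the one with the highest mean was used. The procedure was tested on simulated arrays of 135750 transcript clusters with the spreads of this comparison. There 50 rows each were given a log2 change of 1, 2, 3 or 4, and 18% of those given 1 and 82% of those given 2 were called. Far fewer rows were changed than were called in the data, so these shares do not measure recovery in this comparison. The members and lists were chosen with earlier results of these data known. Any pseudogene row, parent or list gene could be named. Values in all samples were to be given for rows past the threshold, the brightest copy of each parent with several, and the parents, and up to 3 rows with the smallest p were named from each comparison list. Values in all samples for HK2P1, GAPDHP33 and LINC00622 were added after they were seen. Alternatives were quantile normalization, centring on hybridisation controls, a block for the replicate number, a signal filter, another prior, and leaving out each sample. Tables and figures were made with pandas 2.3.3 and matplotlib 3.10.9 in Python 3.11.15.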

Additional observations from a re-analysis of the deposited data

Results flagged for a closer look

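Among 62 groups of 4 samples on 31 rows followed singly, 5 held a sample far from the other 3 by Dixon's test, where chance flags about 1 group in 20. GAPDHP61 read 16.22 in titled no CSS replicate 1, against 15.83 to 15.85 in the other samples of the group. GAPDHP74 read 6.34 in titled no CSS replicate 3, against 5.62 to 5.71. GAPDHP58 read 3.27 in titled 23 Pa CSS replicate 3, against 4.03 to 4.15, all within the range of the negative controls. The parent row of GAPDH read 19.85 in titled 23 Pa CSS replicate 2, against 19.89 in each of the others, all near the table's maximum. LDHA read 19.41 in titled no CSS replicate 4, against 19.69 to 19.71.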

How the results depend on the processing

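The 7 calls among the pseudogene rows (6 higher, 1 lower) became 4 (2 higher, 2 lower) on arrays centred on hybridisation controls, 3 (2 higher) with the replicate number as a block, which ended the calls of ALDOAP1, LDHAP1, LDHAP3 and GAPDHP63, and 11 (10 higher) with a robust prior that follows intensity; quantile normalization left 0 lower. Leaving out 1 sample gave 2 to 10 calls, 2 to 8 higher and 0 to 2 lower. Over all transcript clusters 372 rose and 8206 fell after that centring, which moved the median of all to -0.284, 302 and 1027 with the block, and 1197 rose with the robust prior. Leaving out 1 sample gave 145 to 1283 higher and 266 to 4077 lower. Centring took the median of the 95 rows to 0.115, still 0.4 above that of all transcript clusters, as in the deposited values, with 79 rows above it both times. Over all transcript clusters, dim ones included, deviations of samples with the same replicate number had correlations of -0.0295, -0.0178, -0.0791 and -0.046. Whether equal numbers share a batch was not tested further. The labels state no pairing, so the block is given here only.

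Of 31 rows followed singly 6 turned sign somewhere, none past the threshold. With centring LDHBP2 was -0.12, PGAM1P2 -0.11, GAPDH -0.16 and LDHA -0.03. ENO1P3 became 0.05 under quantile normalization and ran from -0.32 to 0.34 without single samples, and GAPDHP74 became 0.06 and ran from -0.11 to 0.17. The causes were not tested. Log2 changes of 1 were rarely recovered in the simulation, where far fewer rows were changed than were called here. Its shares do not carry over to these data, and 4 samples a group still limit what can be shown.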
